A study of Mus musculus with 6 samples.

Results

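Retnlg Cxcr2 neutrophils are the tumour neutrophils in which Retnlg or Cxcr2 was detected and none of Siglecf, Ffar2, Gpr84 and Il23a was. They were chosen by detection in single cells: a barcode needed at least 500 UMIs (unique molecules counted), 300 detected genes and no more than 20% of UMIs from mitochondrial genes, and had to show at least 3 of the 7 genes Csf3r, G0s2, Cxcr2, Hdc, Il1r2, Mmp9 and Retnlg, and fewer than 2 Csf1r UMIs. Of 54911 cells kept, 7407 passed the neutrophil part of the rule, and 2381 of these were Retnlg Cxcr2 neutrophils. Another 4372 neutrophils had at least 1 UMI of Siglecf, Ffar2, Gpr84 or Il23a and are called Siglecf-type here, and 654 had none of these 4 genes and neither Retnlg nor Cxcr2. The IPI-926 libraries held 903, 478 and 149 Retnlg Cxcr2 neutrophils, against 162, 417 and 272 in the vehicle libraries.

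The cells came from pancreatic tumours of KPC mice, and all 6 tumours shared the genotype KrasLSL.G12D/+; P53LSL.R172H/+; Pdx1-Cre, in which Cre under the Pdx1 promoter recombines the alleles in the pancreas. The mice of 3 tumours received IPI-926, an inhibitor of the Hedgehog transducer Smoothened, by daily oral gavage at 40 mg/kg for 2 days, and those of the other 3 received vehicle, a 5% solution of hydroxypropyl-beta-cyclodextrin. Tissue was taken 2 hours after the last dose and dissociated, red cells were lysed, and 1 droplet 3' single-cell library was made per tumour. The series set out to find changes in particular cell types after Smoothened was inhibited in vivo, with Hedgehog, WNT and VEGF activity as named interests. The labels name no sort of neutrophils.

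Neutrophils are short-lived granulocytes that are made in the bone marrow, packed with granule proteins in an ordered sequence, and released into the blood. Cxcr2 is the receptor for chemokines such as Cxcl1 and Cxcl2 that draws neutrophils out of the marrow and into inflamed tissue, and Retnlg is a secreted resistin-like protein that is abundant in marrow and blood neutrophils of the mouse. S100a8 and S100a9 form calprotectin, the main cytosolic protein complex of neutrophils. Siglecf on tumour neutrophils is known from mouse lung tumours, where it marks a long-lived population.

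Total UMIs per library lay between 100810942 and 174929328, and between 8114 and 17276 barcodes were deposited per library. Retnlg Cxcr2 neutrophils were small in RNA content, with a median of 1803, 1801 and 1120 UMIs per cell in the IPI-926 libraries, against 1554, 1509 and 1252 UMIs per cell in the vehicle libraries. The median over all kept cells was 3401 ± 714 UMIs in the IPI-926 libraries and 6528 ± 1719 UMIs in the vehicle libraries (SD, n = 3 each), with an exact two-sided permutation p of 0.1, the smallest that 3 against 3 libraries allow. The first IPI-926 and the first vehicle library shared 1 barcode among these neutrophils.

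Retnlg and Cxcr2, by which the cells were chosen, had UMIs in every library. Retnlg, on chromosome 16 from 48872621 to 48874496 of mm10, had 4268, 1028 and 1753 CPM in the IPI-926 libraries, against 6207, 559.7 and 2916 CPM in the vehicle libraries, where CPM is the usual per-million scaling of the gene's UMIs by all UMIs of these cells in a library. Both groups held libraries with high and low Retnlg, and the highest and the lowest value were both in vehicle libraries. Cxcr2, on chromosome 1 from 74153989 to 74161246, had 683, 1218 and 369 CPM in the IPI-926 libraries, against 715, 1276 and 870.2 CPM in the vehicle libraries. S100a8, which is no rule gene, had 25858, 12156 and 10949 CPM in the IPI-926 libraries, against 31624, 10205 and 30102 CPM in the vehicle libraries. S100a9 had 30859, 27569.5 and 19484 CPM in the IPI-926 libraries, against 54212, 15852 and 44152 CPM in the vehicle libraries. In each group the library lowest in Retnlg was the highest in Cxcr2, and the groups overlapped for all 4 genes.

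Retnlg was detected in 61.6, 33.7 and 67.1% of these cells in the IPI-926 libraries, against 48.8, 24.2 and 39.0% in the vehicle libraries. Cxcr2 was detected in 86.0, 97.1 and 81.9% in the IPI-926 libraries, against 93.2, 96.9 and 92.6% in the vehicle libraries. S100a9 was detected in 94.5, 92.9 and 94.0% in the IPI-926 libraries, against 93.2, 85.4 and 96.0% in the vehicle libraries. In ductal epithelium, which should lack these genes, the share of cells with a UMI was 0 to 3.30% for Retnlg, 0 to 9.91% for Cxcr2 and 1.37 to 24.4% for S100a9, in cells whose median depth per library ran between 1070 and 23486 UMIs. With every neutrophil thinned to 500 UMIs, Retnlg was still detected in 42.3, 20.3 and 51.7% of the cells in the IPI-926 libraries, against 38.9, 16.8 and 29.8% in the vehicle libraries. Cxcr2 was then detected in 44.5, 57.1 and 45.6% in the IPI-926 libraries, against 53.1, 63.5 and 54.4% in the vehicle libraries. S100a9, by the same thinning, was detected in 86.9, 87.9 and 89.9% in the IPI-926 libraries, against 87.0, 74.8 and 91.9% in the vehicle libraries. Each cell needed Retnlg or Cxcr2 to be chosen, so their detection is no check of the label. S100a9 bears on the cells being neutrophils but does not set them apart among neutrophils, as 79.6 to 87.6% of Siglecf-type cells in the IPI-926 libraries and 72.0 to 91.8% in the vehicle libraries had a UMI of it.

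Around the thresholds, 296 members had exactly 3 of the 7 neutrophil genes, and 224 cells had exactly 2 and stayed out. One UMI of Csf1r, a receptor of macrophages, was found in 278 members, and 45 cells with 2 stayed out. A single UMI of Retnlg and Cxcr2 together carried 602 members in, and a single UMI of the 4 Siglecf-type genes kept 944 neutrophils out. Membership rests on 1 molecule for many cells, and a shallower cell is more likely to show none of the 4 excluding genes.

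Markers of other cell types were found in many of these cells. The 6 ductal markers Krt8, Krt18, Krt19, Epcam, Cdh1 and Tff1 summed to 2116, 3153 and 653 CPM in the IPI-926 libraries, against 7142, 2768 and 4326 CPM in the vehicle libraries, and at least 2 of them were detected in 16.5, 55.6 and 3.36% of the cells of the IPI-926 libraries, against 83.3, 24.0 and 53.7% in the vehicle libraries. The 6 fibroblast markers summed to 3752, 1162 and 11646 CPM in the IPI-926 libraries, against 5107, 3802 and 1762 CPM in the vehicle libraries. The 6 monocyte markers summed to 501 to 1854 CPM in the IPI-926 libraries, against 649 to 1534 CPM in the vehicle libraries. The 8 macrophage markers, without Csf1r, summed to 345 to 713 CPM in the IPI-926 libraries, against 350 to 736 CPM in the vehicle libraries. The 8 dendritic cell markers summed to 257 to 737 CPM in the IPI-926 libraries, against 166 to 632 CPM in the vehicle libraries. The 6 T cell markers summed to 20.9 to 191 CPM in the IPI-926 libraries, against 0 to 34.1 CPM in the vehicle libraries. The eosinophil genes Epx and Prg2 were at 0 in all 6 libraries, and the 7 eosinophil markers summed to between 2.85 and 22.8 CPM.

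A few very large cells weighed heavily on sums over cells. Only 88 of the 2381 cells had over 10000 UMIs, and 87 of the 88 had at least 2 markers of 1 other cell class. Such markers were not confined to large cells, as 1208 of all 2381 cells had them. By library these were 29.9, 62.8 and 61.1% of the cells in the IPI-926 libraries, against 88.3, 57.6 and 60.3% in the vehicle libraries. The 88 large cells held 46.7, 28.5 and 72.1% of the UMIs of these neutrophils in the IPI-926 libraries, against 49.7, 31.9 and 36.7% in the vehicle libraries. Values from the 2293 cells with at most 10000 UMIs, a limit chosen after seeing the data, are therefore given beside the main values. Doublets called by score, and cells with markers of another class, were each left out in an alternative, and the part of free RNA was not tested.

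**Figure D1:**
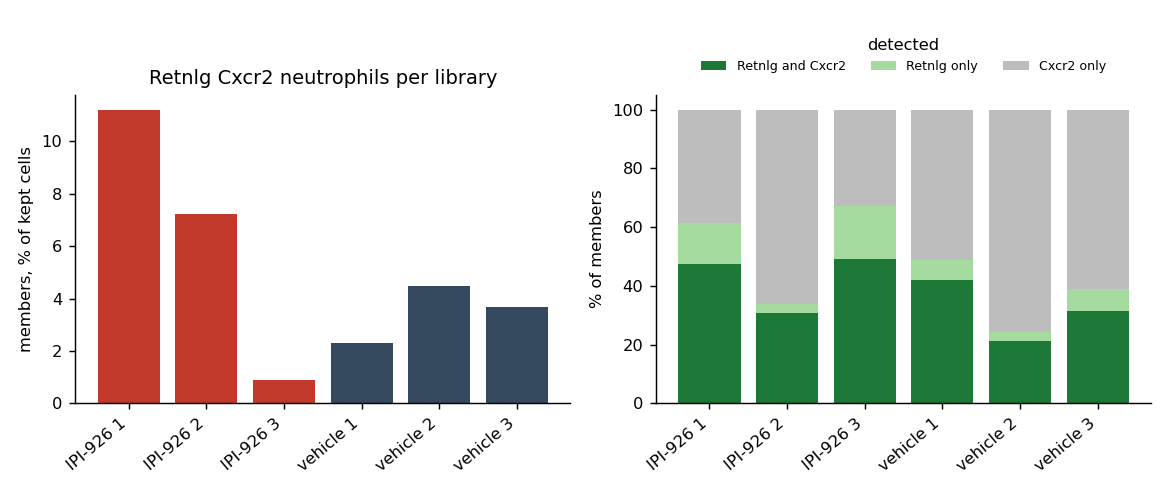
Retnlg Cxcr2 neutrophils per library as bars in percent of kept cells (left), and the percentage of them with Retnlg and Cxcr2, Retnlg alone or Cxcr2 alone detected, stacked (right), with the IPI-926 libraries left of the vehicle libraries. The 3 IPI-926 libraries ran between 0.907 and 11.2% of kept cells, and the 3 vehicle libraries between 2.29 and 4.46%, and the Cxcr2-only share is largest in the second library of each group.

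Retnlg Cxcr2 neutrophils made up 11.2, 7.23 and 0.907% of the kept cells in the IPI-926 libraries, against 2.29, 4.46 and 3.68% in the vehicle libraries. The groups overlapped, with the highest and the lowest share both under IPI-926. The means were 6.45 ± 5.20% in the IPI-926 libraries and 3.48 ± 1.10% in the vehicle libraries (SD, n = 3 each), and an exact two-sided permutation test gave p = 0.5. Of all neutrophils they were 34.9, 38.0 and 72.0% in the IPI-926 libraries, against 47.8, 18.3 and 37.2% in the vehicle libraries, with means of 48.3 ± 20.6% in the IPI-926 libraries and 34.4 ± 14.9% in the vehicle libraries (SD, n = 3 each) and an exact permutation p of 0.5. The third IPI-926 library combined the lowest share of kept cells with the highest share of neutrophils and held 15 Siglecf-type cells among 16426 kept cells. Thinning every cell to 1000 UMIs left 7526, 4930 and 14317 cells in the IPI-926 libraries, against 6037, 8418 and 6533 cells in the vehicle libraries, since shallower cells were left out. The shares of kept cells were 7.06 ± 5.84% in the IPI-926 libraries and 3.46 ± 1.26% in the vehicle libraries (SD, n = 3 each), with an exact permutation p of 0.4. A difference in either share was not detectable with 3 tumours per group.

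The cells fell into those with Retnlg detected, alone or with Cxcr2, and those with Cxcr2 alone. Retnlg was detected in 556, 161 and 100 cells of the IPI-926 libraries, against 79, 101 and 106 cells of the vehicle libraries, and Cxcr2 alone in 347, 317 and 49 cells of the IPI-926 libraries, against 83, 316 and 166 cells of the vehicle libraries. Among cells with at most 10000 UMIs, Ngp, Ly6g, Lcn2, S100a8 and S100a9 were higher in the Retnlg-detected cells in all 6 libraries, and the inflammatory genes Tnf, Icam1 and Cxcl1 were lower. Of 2668 genes with at least 50 scaled CPM in 1 of the 2 subsets, 16.8% were higher and 7.76% lower in all 6 libraries, scaled CPM being CPM after TMM scaling over the sums compared. The split uses detection in the same cells, and it was made after seeing the data, so these are descriptions with no test. Retnlg-detected cells were also deeper, with a median of 1183 to 1971 UMIs per library, against 974 to 1713 UMIs in Cxcr2-only cells.

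**Figure D2:**
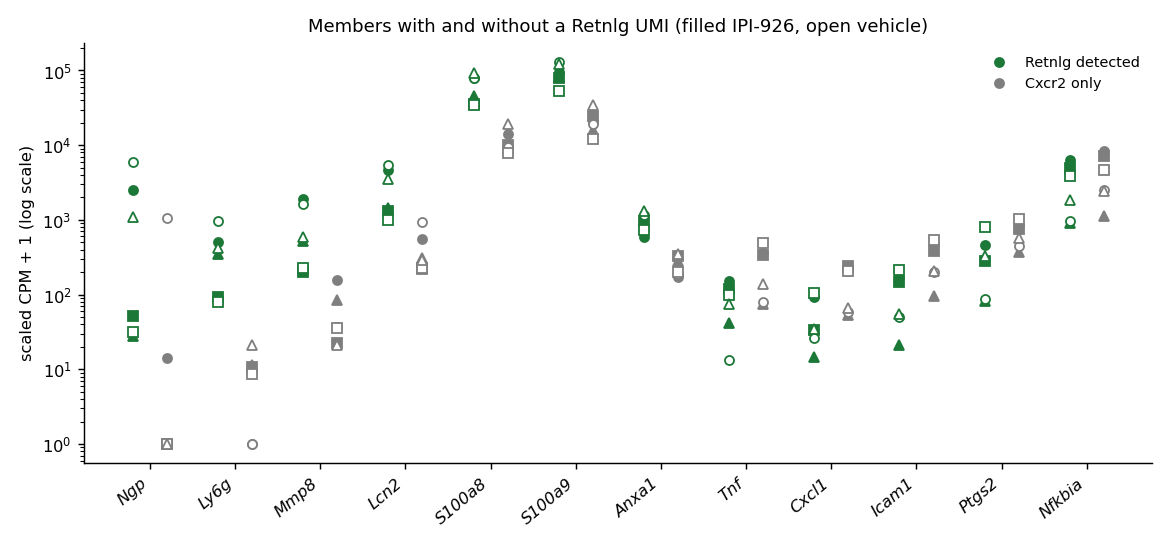
Scaled CPM plus 1, on a log axis, of 12 genes in Retnlg-detected (green, left) and Cxcr2-only (grey, right) members of at most 10000 UMIs, with 1 point per library, filled for IPI-926 and open for vehicle, and the same shape for the same library in both colours. Lcn2, Ly6g and S100a8 were higher, and Tnf and Icam1 lower, in the Retnlg-detected cells of all 6 libraries.

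Ngp, a protein of the specific granules that are filled in the marrow, had, over IPI-926 1 to 3 and then vehicle 1 to 3, 2516, 51.0, 27.03, 5868, 30.4 and 1100.3 scaled CPM in the Retnlg-detected members, against 13.04, 0, 0, 1076, 0 and 0 scaled CPM in the Cxcr2-only members. Ly6g, the surface antigen by which mouse neutrophils are sorted, had 503, 91.1, 345, 965, 79.02 and 414 scaled CPM in the Retnlg-detected members, against 0, 9.78, 10.5, 0, 7.64 and 20.1 scaled CPM in the Cxcr2-only members in the same order of libraries. Lcn2, an iron-scavenging specific granule protein, had 4692, 1334, 1446, 5376, 1003 and 3538 scaled CPM in the Retnlg-detected members, against 563, 219, 305, 939.8, 225 and 293 scaled CPM in the Cxcr2-only members. For all 3 genes the Retnlg-detected cells were higher in every library, and Ngp was above 1000 scaled CPM in those of IPI-926 1, vehicle 1 and vehicle 3 alone. S100a8 averaged 61144 scaled CPM in the Retnlg-detected members, against 11598 scaled CPM in the Cxcr2-only members, a mean log2 difference of 2.36 ± 0.42 (SD, n = 6 libraries), and S100a9 differed by 2.15 ± 0.38. Anxa1, a regulator that limits neutrophil recruitment, was higher by 1.88 ± 0.40. Tnf, a cytokine of the NF-kB response, had 150.5, 117, 40.5, 12.4, 97.3 and 74.7 scaled CPM in the Retnlg-detected members, against 359.6, 342, 73.5, 78.9, 487 and 136 scaled CPM in the Cxcr2-only members, a mean log2 difference of -1.55 ± 0.72. Icam1, an adhesion molecule, differed by -1.69 ± 0.35, the chemokine Cxcl1 by -1.51 ± 0.73 and the prostaglandin synthase Ptgs2 by -1.33 ± 0.79. Il1b, at -0.05 ± 0.45, and Cxcl2, at -0.01 ± 0.39, were about level between the subsets.

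The list counts that follow stand beside 16.8% of all 2668 genes higher and 7.76% lower in all 6 libraries. By list, 8 of 11 S100 and Wfdc genes with enough counts were higher in Retnlg-detected cells in all 6 libraries. Their median log2 difference was 1.62, beside 0.03 over all 2668 genes. Of the 12 specific granule genes, 4 were higher in all 6 (Ngp, Mmp8, Lcn2 and Hp), with a median of 1.44. Of the 25 cytokine and NF-kB target genes, 10 were lower and 2 higher in all 6, with a median of -0.39. Of 20 type I interferon response genes, 9 were higher in all 6 and 0 were lower in all 6, with a median of 0.94.

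Promoters of 3 of these genes are shown because Retnlg chose the cells and S100a8 and Ngp were higher where it was detected in all 6 libraries. Each is 300 bases of RefSeq on GRCm38.p6, from 250 bases before the gene's start to 50 after, read 5′ to 3′ on the gene's strand, and capitals mark matches to the C/EBP motif TTNNGNAA on either strand. The windows are chr16:48872358-48872657 for Retnlg, chr3:90668821-90669120 for S100a8 and chr9:110419558-110419857 for Ngp, all on the plus strand. C/EBP factors are regulators of granule genes during neutrophil maturation.
Retnlg: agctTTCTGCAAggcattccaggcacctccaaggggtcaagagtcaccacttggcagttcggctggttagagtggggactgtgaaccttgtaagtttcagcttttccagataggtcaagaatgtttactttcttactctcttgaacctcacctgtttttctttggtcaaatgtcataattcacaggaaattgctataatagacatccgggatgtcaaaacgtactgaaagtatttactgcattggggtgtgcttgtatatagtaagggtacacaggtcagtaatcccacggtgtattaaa
S100a8: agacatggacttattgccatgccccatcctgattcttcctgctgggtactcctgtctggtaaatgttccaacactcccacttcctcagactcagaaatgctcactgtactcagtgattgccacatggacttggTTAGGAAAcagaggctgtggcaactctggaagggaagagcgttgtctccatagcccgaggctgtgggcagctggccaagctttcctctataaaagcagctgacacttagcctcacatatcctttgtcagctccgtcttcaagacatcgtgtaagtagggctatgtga
Ngp: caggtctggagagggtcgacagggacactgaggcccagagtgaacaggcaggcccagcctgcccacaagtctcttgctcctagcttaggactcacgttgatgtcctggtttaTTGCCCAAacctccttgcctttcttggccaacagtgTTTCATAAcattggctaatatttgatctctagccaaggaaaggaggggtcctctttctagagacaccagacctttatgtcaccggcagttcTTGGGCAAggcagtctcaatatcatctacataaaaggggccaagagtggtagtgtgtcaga
The match lies 246 bases before the start in Retnlg and 117 before it in S100a8, and the 3 matches of Ngp lie 138, 102 and 11 bases before it. The motif is common: 40.7% of 32851 promoter windows of the same length held it, and 44.1% of 27025 genes held it in any window. So did 8 of the 10 specific granule genes and 6 of the 9 S100 and Wfdc genes that were tested and had an entry. The ETS motif AGGAAG, on either strand, was held by 35.4% of windows and 38.4% of the 27025 genes, by 8 of the same 10 and by 3 of the same 9. The Cxcr2 window held no match to TTNNGNAA.

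Set against Siglecf-type neutrophils of the same tumours, Retnlg Cxcr2 cells had more Ly6g, Mmp8, S100a8 and S100a9, and less Tnf, Il1a, Icam1 and Ltc4s. The comparison used the 5 libraries with at least 20 cells of each kind, which left out the third IPI-926 library. Of 3208 genes with at least 50 scaled CPM in 1 of the 2 kinds, without the 12 rule genes, 24.1% were higher and 26.3% lower in all 5 libraries, and of 2964 genes in cells with at most 10000 UMIs 25.7% were higher and 19.5% lower. With every cell thinned to 1000 UMIs and the rule applied anew, 22.5% of 2922 genes were higher and 10.9% lower. The lower genes were then 318 in place of 844, and the higher genes 656 in place of 774. More than depth changed: cells under 1000 UMIs and the weight of large cells were lost, and cells could change kind. Siglecf-type cells went from 1494 to 944 in the first IPI-926 library and from 1670 to 1139 in the second vehicle library. What made the genes fewer was not tested. The rule splits these cells by detection in the same cells, so no test applies, and depth bears on it: Retnlg Cxcr2 cells had a median of 1252 to 1803 UMIs per library, against 1509.5 to 1962 UMIs in Siglecf-type cells, and were the shallower kind in each of the 5 libraries.

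**Figure D3:**
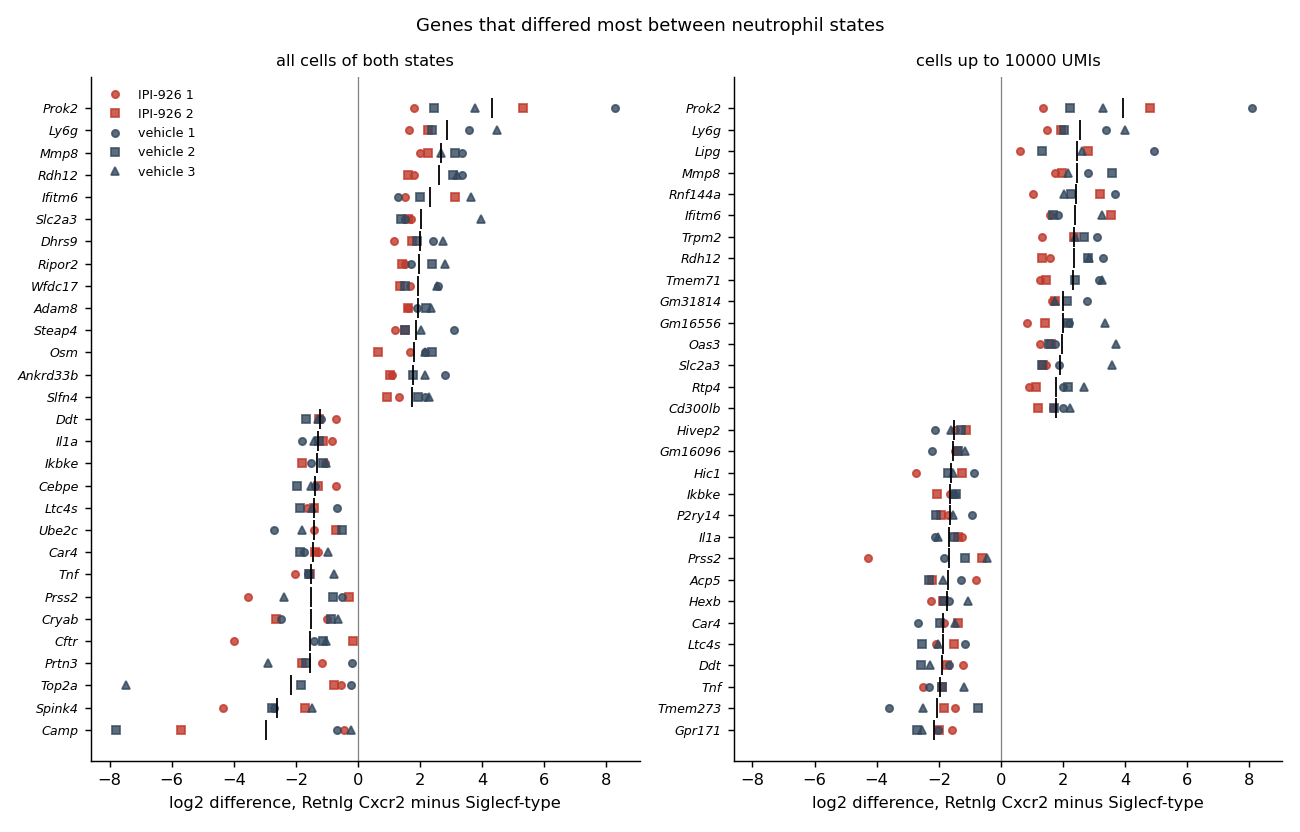
Log2 difference in scaled CPM, Retnlg Cxcr2 minus Siglecf-type neutrophils, for genes among the 15 most higher and the 15 most lower in the same direction in all 5 libraries, over all cells (left) and cells of at most 10000 UMIs (right). Each point is 1 library and the black bar the mean; Ly6g and Mmp8 lie right of 0 and Tnf left of 0 in every library of both panels.

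In cells with at most 10000 UMIs, Ly6g had, over IPI-926 1 and 2 and vehicle 1 to 3, 343, 41.4, 583, 26.5 and 183 scaled CPM in the Retnlg Cxcr2 cells, against 122, 10.5, 56.0, 6.15 and 11.1 scaled CPM in the Siglecf-type cells, a mean log2 difference of 2.56 ± 1.07 (SD, n = 5 libraries). Mmp8, the neutrophil collagenase, had 1377, 89.6, 1009, 85.6 and 256 scaled CPM in the Retnlg Cxcr2 cells, against 413, 22.5, 144, 6.73 and 56.7 scaled CPM in the Siglecf-type cells, a mean log2 difference of 2.45 ± 0.74. Both were higher in the Retnlg Cxcr2 cells of every library, while the level itself differed many-fold between libraries. S100a8 differed by 1.14 ± 0.30 and S100a9 by 1.14 ± 0.29. Tnf had 247, 285, 48.9, 422 and 125 scaled CPM in the Retnlg Cxcr2 cells, against 1403, 1074, 244, 1556 and 283 scaled CPM in the Siglecf-type cells, a mean log2 difference of -1.96 ± 0.51. Il1a differed by -1.66 ± 0.39, Icam1 by -1.34 ± 0.34 and the chemokine Ccl3 by -0.91 ± 0.45. Il1b, at 0.08 ± 0.09, was higher in 4 of the 5 libraries, and over all cells it was higher in 5 of 5, at 0.47 ± 0.11.

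Of the 15 genes that differed most in each direction, 6 higher genes (Ifitm6, Ly6g, Mmp8, Prok2, Rdh12 and Slc2a3) and 7 lower genes (Car4, Ddt, Ikbke, Il1a, Ltc4s, Prss2 and Tnf) were among the 15 both over all cells and over cells with at most 10000 UMIs. Prok2 is a secreted angiogenic peptide of neutrophils, Slc2a3 a glucose transporter, and Ltc4s the enzyme that makes a cysteinyl leukotriene. Prss2 is a digestive protease of acinar cells. The list counts that follow stand beside 24.1% of all genes higher and 26.3% lower in all 5 libraries over all cells. Over cells with at most 10000 UMIs these shares were 25.7% and 19.5%. By list, 15 of 18 chemotaxis and adhesion genes were higher in all 5 libraries over all cells. Over cells with at most 10000 UMIs 11 of 18 were higher. Selplg, Itgal and Ccr1 were higher and Icam1 and Clec4n lower in both. Of the 11 S100 and Wfdc genes 7 were higher and 1, S100a10, lower over all cells, and 9 were higher over the smaller cells, S100a10 among them. Of the 12 specific granule genes 4, Mmp8 among them, were higher and 1, Camp, lower over all cells. Over the smaller cells 3 of the 12 were higher and 0 lower, beside 25.7% and 19.5% of all genes. Camp, at a mean log2 difference of -2.96 ± 3.53, and the granule protease Prtn3, at -1.55 ± 0.99, were among the 15 most lower over all cells. Of the 25 cytokine and NF-kB target genes 8 were higher and 6 lower over all cells, near the shares of all genes. Over the smaller cells 3 were higher and 10 lower. The balance of that list thus differed between all cells and the smaller cells, and the part of the large cells in this was not tested. Osm, Ccl6 and Ier3 were higher and Tnf, Il1a, Icam1, Csf1, Sod2 and Il1rn lower in both. Of 12 type I interferon response genes 8 were higher over all cells, and of 19 in the smaller cells 13 were higher and 1, Oasl2, was lower. DNA replication genes, 8 of 11 lower over all cells, had 1 of 6 lower over the smaller cells.

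Between IPI-926 and vehicle, 1 gene passed in Retnlg Cxcr2 neutrophils. Gkn2, a secreted gastrokine of the stomach epithelium, had 0, 0.892 and 1.35 scaled CPM in the IPI-926 libraries, against 102, 93.9 and 121 scaled CPM in the vehicle libraries, from 0, 1 and 1 UMIs in the IPI-926 libraries and 54, 94 and 71 UMIs in the vehicle libraries. All 3 IPI-926 libraries were at or near 0 and all 3 vehicle libraries near 100. The fall had a log2 fold change of -7.60, SE 0.71, adjusted p = 0.0328 by the quasi-likelihood test of edgeR, adjusted by Benjamini-Hochberg across 7534 genes, and the summed UMIs gave a vehicle over IPI-926 ratio of 277 (95% exact interval 75.8 to 2301, counting error only). In ductal cells of the same tumours Gkn2 had 0.163, 4.21 and 7.02 CPM in the IPI-926 libraries, against 314, 1743 and 209 CPM in the vehicle libraries, and in all cells that are not neutrophils it had 0.137, 5.66 and 7.24 CPM in the IPI-926 libraries, against 186, 638 and 189 CPM in the vehicle libraries. The vehicle levels were higher in ductal cells than in the neutrophils in each library, and the part of epithelial RNA in the value of the neutrophils was not tested. With cells of at most 10000 UMIs the adjusted p was 0.00268, and the call was lost with limma-voom, with the second IPI-926 library or any 1 vehicle library left out (adjusted p between 0.107 and 0.411), with a stricter cell filter (0.0565) and with both Retnlg and Cxcr2 required (0.0517). The log2 fold change lay between -6.41 and -8.70 over the 20 alternatives. The call held without scored doublets (adjusted p = 0.0151 by edgeR). It also held without cells that had markers of another class (adjusted p = 0.0355 by edgeR, log2 fold change -6.81). That last fit lacked the first vehicle library, which kept 19 cells, under the minimum of 20.

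Only that gene, 0.0133% of the 7534 tested, passed at an adjusted p of 0.05, while 150 genes had an unadjusted p under 0.05. DESeq2 called 10 genes and limma-voom 0, with 181 at an unadjusted p under 0.05. On counts simulated for this comparison, the test recovered 6% of genes changed by a log2 of 1, 74% at 2, 96% at 3 and 100% at 4. The simulation gave every gene the same spread between libraries and changed only genes with higher mean counts. These percentages therefore do not carry over to genes with fewer counts or a larger spread. Grem1, at a log2 fold change of 5.66 (SE 1.39), did not pass. A change of 1 log2 unit was mostly not detectable even in the simulated setting. By groups that do not overlap, 3.37% of genes were higher and 3.4% lower in every IPI-926 library than in any vehicle library. In cells with at most 10000 UMIs 1 of 4789 genes, 0.0209%, was called, again Gkn2, and 3.36% were higher and 4.11% lower without overlap.

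The 5 genes of smallest p among those with a higher value under IPI-926 were Isg15, Gm20406, Stom, Ccn5 and Grem1, and none of them passed. Stom, a membrane scaffold protein, had 27.1, 24.1 and 17.6 scaled CPM in the IPI-926 libraries, against 5.64, 4.995 and 8.55 scaled CPM in the vehicle libraries. Gm20406, a gene model, had 49.2, 17.8 and 16.2 scaled CPM in the IPI-926 libraries, against 3.76, 2.997 and 3.42 scaled CPM in the vehicle libraries. The 3 IPI-926 libraries were above the 3 vehicle libraries for both, and for Gm20406 also in cells with at most 10000 UMIs, where Stom had too few counts to be tested. Ccn5 and Grem1 are secreted proteins of fibroblasts: Grem1, a BMP antagonist, had 13.4, 27.7 and 129 scaled CPM in the IPI-926 libraries, against 3.76, 0 and 0 scaled CPM in the vehicle libraries. The IPI-926 over vehicle ratio of its summed UMIs was 33.4 (95% exact interval 9.11 to 278, counting error only). Ccn5 had 19.9, 29.5 and 69.0 scaled CPM in the IPI-926 libraries, against 5.64, 0 and 0 scaled CPM in the vehicle libraries, a ratio of 19.5 (95% exact interval 6.55 to 95.7, counting error only). Their highest values were in the third IPI-926 library, which also had the highest fibroblast marker sum, and they had too few counts to be tested in cells with at most 10000 UMIs.

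On the lower side the 5 were Gkn2, Barx1, Mcpt2, Prorp and Mpzl2. Barx1, a homeobox factor of foregut mesenchyme, had 1.56, 0 and 1.35 scaled CPM in the IPI-926 libraries, against 50.8, 22.98 and 17.1 scaled CPM in the vehicle libraries, a vehicle over IPI-926 ratio of 25.3 (95% exact interval 10.97 to 71.7, counting error only). Mcpt2, a mast cell protease, had 6.55, 33.9 and 10.8 scaled CPM in the IPI-926 libraries, against 374, 54.9 and 111 scaled CPM in the vehicle libraries (log2 fold change -3.41, SE 0.90, adjusted p = 0.9999 by edgeR). Prorp had 4.99, 6.25 and 4.06 scaled CPM in the IPI-926 libraries, against 16.9, 12.99 and 18.8 scaled CPM in the vehicle libraries. Mpzl2 had 20.9, 20.5 and 16.2 scaled CPM in the IPI-926 libraries, against 37.6, 41.0 and 42.7 scaled CPM in the vehicle libraries. The groups did not overlap for these 4 genes over all cells, and none of the 4 passed. In cells with at most 10000 UMIs Mcpt2 had 0.630, 15.98 and 25.7 scaled CPM in the IPI-926 libraries, against 112, 11.4 and 29.5 scaled CPM in the vehicle libraries (log2 fold change -2.23, SE 1.31, adjusted p = 0.9994 by edgeR), and its groups overlapped, while Barx1, Prorp and Mpzl2 had too few counts to be tested.

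Type I interferon response genes had mostly higher values under IPI-926, and none passed. Isg15, a ubiquitin-like modifier induced by interferon, on chromosome 4 from 156199424 to 156200818 of mm10, had 205, 209 and 467 scaled CPM in the IPI-926 libraries, against 52.7, 73.9 and 70.1 scaled CPM in the vehicle libraries (log2 fold change 2.15, SE 0.43, adjusted p = 0.9999 by edgeR). All 3 IPI-926 libraries were above all 3 vehicle libraries, the third by the most. In cells with at most 10000 UMIs Isg15 had 274, 283 and 509 scaled CPM in the IPI-926 libraries, against 93.0, 105 and 96.5 scaled CPM in the vehicle libraries (log2 fold change 1.83, SE 0.35, adjusted p = 0.405 by edgeR). Over 20 alternatives its log2 fold change lay between 1.07 and 2.42, and DESeq2 alone called it, with an adjusted p of 0.0224. The lowest came without cells that had markers of another class, a fit that also lacked the first vehicle library. Rsad2, an antiviral enzyme, had 225, 35.7 and 21.6 scaled CPM in the IPI-926 libraries, against 5.64, 16.98 and 8.55 scaled CPM in the vehicle libraries. Ifit3, of the interferon-induced IFIT family, had 26.2, 13.4 and 73.1 scaled CPM in the IPI-926 libraries, against 5.64, 0 and 0 scaled CPM in the vehicle libraries, an IPI-926 over vehicle ratio of 20.2 (95% exact interval 6.77 to 98.8, counting error only). Parp14, an ADP-ribosyltransferase, had 53.3, 58.9 and 87.9 scaled CPM in the IPI-926 libraries, against 26.3, 28.0 and 25.6 scaled CPM in the vehicle libraries (log2 fold change 1.31, SE 0.33, adjusted p = 0.9999 by edgeR). The groups did not overlap for these genes, while the IPI-926 library with the highest value was the first for Rsad2 and the third for Isg15, Ifit3 and Parp14.

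**Figure D4:**
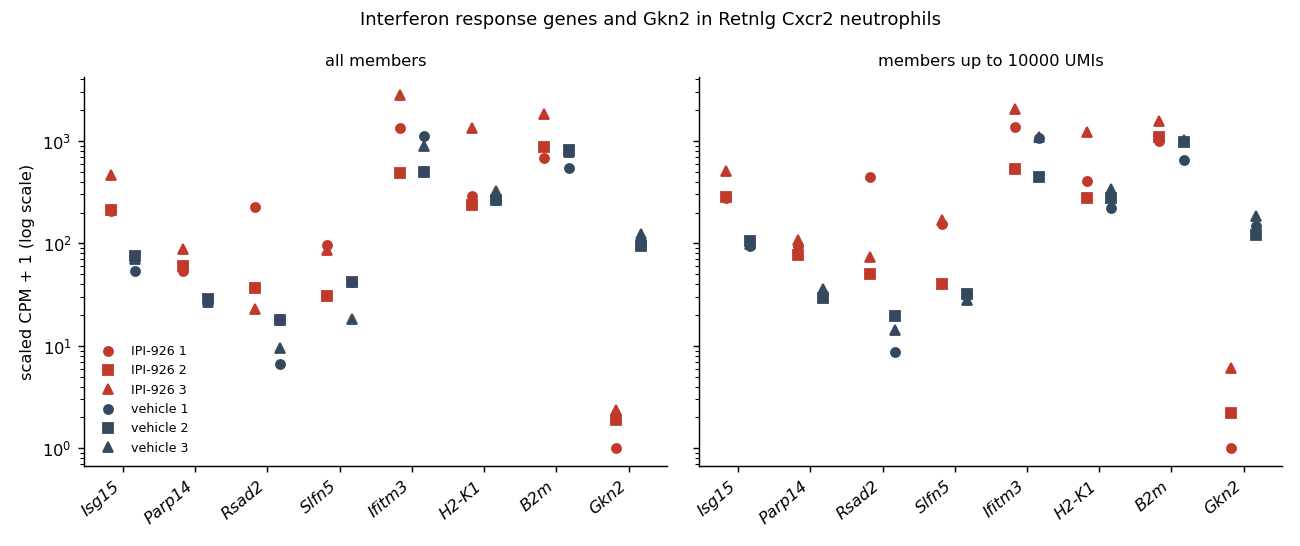
Scaled CPM plus 1, on a log axis, of interferon response and MHC class I genes and Gkn2 in Retnlg Cxcr2 neutrophils, over all of them (left) and those of at most 10000 UMIs (right), with 1 point per library and IPI-926 (red) left of vehicle (blue). Over all cells, the 3 IPI-926 libraries of Isg15, at 205 to 467, lie above the 3 vehicle libraries, at 52.7 to 73.9, and of these genes Gkn2 alone passed the test.

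Of the 30 type I genes tested 27 had a positive log2 fold change, beside 52.0% of all genes, and the median was 0.98, beside 0.02 over all genes. Of the 30, 8 were higher in every IPI-926 library than in any vehicle library (Isg15, Parp14, Ifit3, Ifit1, Oasl1, Rsad2, Irf7 and Ifih1), beside 3.37% of all genes. In cells with at most 10000 UMIs 22 of 24 were positive, beside 49.97% of all genes, with a median of 0.72, and 7 did not overlap, beside 3.36%. Leaving out 1 library at a time moved the median over all cells between 0.57, without the third IPI-926 library, and 1.37. Summed over the 30 genes the level was 8090, 6709 and 8006 scaled CPM in the IPI-926 libraries, against 5774, 4475 and 7389 scaled CPM in the vehicle libraries, a sum led by Ifitm1, Ifitm3 and Slfn1. The groups of sums overlapped.

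Interferon gamma and MHC class I genes had a median of 1.10, with 18 of 18 positive and 0 called, and 15 of 15 positive in cells with at most 10000 UMIs at a median of 1.18. This rested on 1 library: without the third IPI-926 library the median was 0.06. H2-K1, a classical MHC class I heavy chain, had 289.9, 235 and 1326 scaled CPM in the IPI-926 libraries, against 271, 266 and 326 scaled CPM in the vehicle libraries. That library also had the highest T cell marker sum, at 191 CPM, in these cells, and whether that bears on H2-K1 was not tested.

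Isg15 was also higher under IPI-926 outside Retnlg Cxcr2 neutrophils. Siglecf-type cells had 105, 129 and 2031 CPM in the IPI-926 libraries, against 20.3, 31.8 and 24.3 CPM in the vehicle libraries, and cells that are not neutrophils had 46.4, 22.8 and 404 CPM in the IPI-926 libraries, against 18.9, 18.4 and 8.91 CPM in the vehicle libraries. The response of Isg15 in Retnlg Cxcr2 minus that in Siglecf-type neutrophils was -1.49 on the log2 scale (SE 1.01, adjusted p = 0.99995 by edgeR), so a difference between the kinds of neutrophil did not pass.

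Promoters of 3 of the non-overlapping interferon genes are shown with capitals at matches to the interferon-stimulated response element (GAAA, any 2 bases, GAAA) on either strand, the motif bound by the complex that type I interferon activates. They are the same kind of RefSeq window on GRCm38.p6: chr4:156200769-156201068 on the minus strand for Isg15, chr12:26456403-26456702 on the minus strand for Rsad2 and chr19:34583279-34583578 on the plus strand for Ifit3.
Isg15: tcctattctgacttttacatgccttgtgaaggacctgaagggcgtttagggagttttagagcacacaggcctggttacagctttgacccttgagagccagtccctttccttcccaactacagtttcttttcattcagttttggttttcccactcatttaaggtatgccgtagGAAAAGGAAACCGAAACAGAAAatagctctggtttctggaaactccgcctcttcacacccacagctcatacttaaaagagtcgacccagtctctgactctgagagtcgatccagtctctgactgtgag
Rsad2: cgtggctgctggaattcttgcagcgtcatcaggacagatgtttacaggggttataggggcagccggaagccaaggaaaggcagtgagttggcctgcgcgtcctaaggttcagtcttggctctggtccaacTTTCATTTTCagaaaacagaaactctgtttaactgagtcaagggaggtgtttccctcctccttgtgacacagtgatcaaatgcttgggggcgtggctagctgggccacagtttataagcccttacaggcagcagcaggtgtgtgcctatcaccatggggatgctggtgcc
Ifit3: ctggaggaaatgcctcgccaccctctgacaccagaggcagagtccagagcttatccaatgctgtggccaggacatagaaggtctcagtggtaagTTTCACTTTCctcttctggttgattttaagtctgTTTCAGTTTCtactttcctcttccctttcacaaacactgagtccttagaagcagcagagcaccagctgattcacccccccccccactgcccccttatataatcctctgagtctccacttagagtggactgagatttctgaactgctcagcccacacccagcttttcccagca
Isg15 holds 3 overlapping matches that begin 78, 72 and 66 bases before its start, Rsad2 has 1 match 120 bases before, and Ifit3 has 2 at 156 and 122 bases before. The motif was found in 3.44% of 32851 promoter windows and, counting any window of a gene, in 3.99% of 27025 genes. It was found in 13 of the 24 type I interferon response genes that were tested and had an entry. Of the interferon gamma and MHC class I genes 9 of 16 held it, so it was not particular to the type I list. The windows of Oasl1 and Gkn2 held no match.

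**Figure D5:**
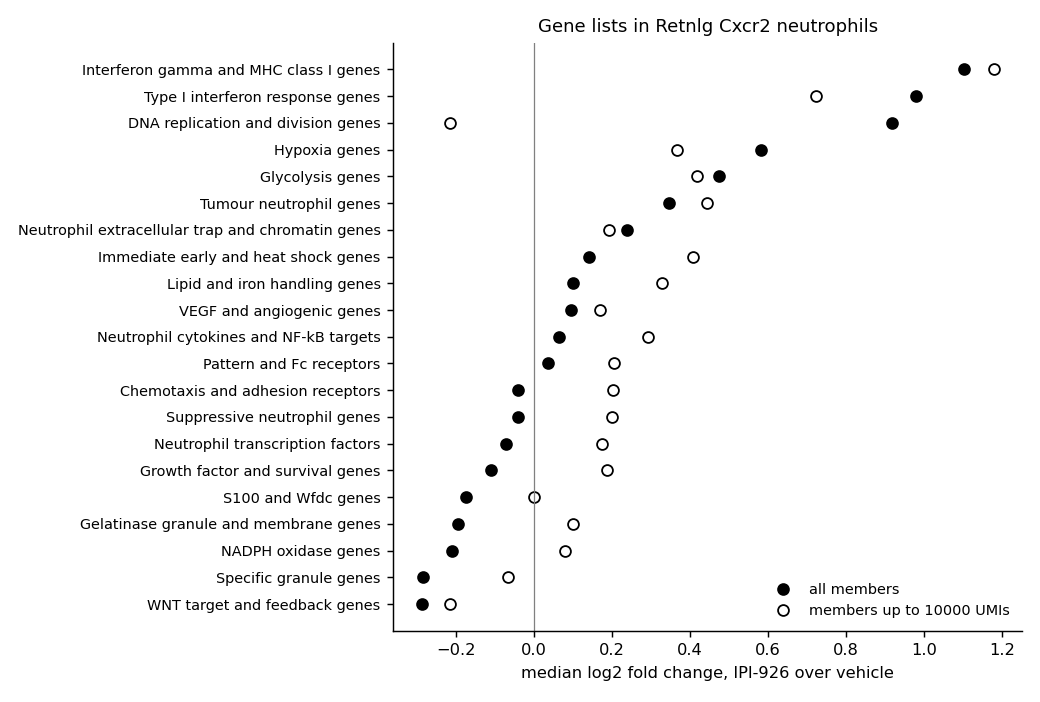
Median log2 fold change, IPI-926 over vehicle, of each gene list in Retnlg Cxcr2 neutrophils, over all cells (filled) and over cells with at most 10000 UMIs (open), with a line at 0. The 2 interferon lists have the highest medians in both, and the list of DNA replication genes changes sign.

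In the lists of neutrophil function 0 members passed the test by edgeR, and the median over all genes was 0.02. Specific granule genes had a median of -0.28 over all cells and -0.07 in cells with at most 10000 UMIs, with 11 of 12 negative over all cells and 6 of 12 in the smaller cells. Leaving out 1 library moved the median over all cells between -1.07, without the first IPI-926 library, and 0.26, without the first vehicle library. S100 and Wfdc genes had -0.17 and 0.00, and chemotaxis and adhesion genes -0.04 and 0.20, and with 1 library left out they lay between -0.39 and 0.36 and between -0.50 and 0.28. Camp, a cathelicidin stored in specific granules, had 329, 2.41 and 1.42 CPM in the IPI-926 libraries, against 3946, 0 and 131 CPM in the vehicle libraries: nearly all of it was in the first vehicle and the first IPI-926 library. Ngp, another specific granule gene, had 883, 12.1 and 5.69 CPM in the IPI-926 libraries, against 3116, 5.17 and 266 CPM in the vehicle libraries, with the same 2 libraries highest. For both genes the spread within a group was larger than the difference between the groups. Il1b, the secreted cytokine, had 6567, 13935 and 1951 scaled CPM in the IPI-926 libraries, against 4837, 9758 and 10610 scaled CPM in the vehicle libraries (log2 fold change -0.17, SE 0.67, adjusted p = 0.9999 by edgeR). The primary granule, gelatinase granule, NADPH oxidase, pattern receptor, suppressive and extracellular trap lists had medians between -0.21 (NADPH oxidase) and 0.25 (primary granules, 2 of 7 genes tested) over all cells.

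Glycolysis genes had a median of 0.47 with 15 of 19 positive and hypoxia genes 0.58 with 18 of 19 positive, and in cells with at most 10000 UMIs 0.42 and 0.37. Over all cells 6 glycolysis genes (Tpi1, Ldha, Gapdh, Pgam1, Pgk1 and Pkm) were higher and 2 (Hk3 and Pygl) lower in every IPI-926 library than in any vehicle library, beside 3.37% and 3.4% of all genes. Among cells with at most 10000 UMIs 0 of the 19 stood apart in either direction. Gapdh had 2217, 1869.7 and 1599 scaled CPM in the IPI-926 libraries, against 1287, 664 and 932 scaled CPM in the vehicle libraries. Mif, a cytokine that hypoxia induces, had 950.0, 552 and 607 scaled CPM in the IPI-926 libraries, against 359, 376 and 335 scaled CPM in the vehicle libraries. The groups of both overlapped in cells with at most 10000 UMIs, and Mif had 635, 525 and 283 scaled CPM in the IPI-926 libraries, against 499.7, 373 and 322 scaled CPM in the vehicle libraries (log2 fold change 0.28, beside 0.98 over all cells). Of the 61 genes that are the 3 most abundant of each list, Gapdh and Mif had an unadjusted p under 0.05 and 0 passed the adjustment by edgeR, with log2 fold changes between -3.58 (Camp) and 1.10 (H2-K1). DNA replication genes had a median of 0.92 over all cells and -0.21 over cells with at most 10000 UMIs, from 18 genes tested over all cells and 8 over the smaller cells. Without the third IPI-926 library the median of the DNA replication genes over all cells was 0.12, and without the first that of the hypoxia genes was 0.11. Immediate early and heat shock genes had 0.14 and 0.41, and tumour neutrophil genes 0.35 and 0.44.

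Of the Hedgehog pathway, the target of the drug, few transcripts were found in these cells. Gli1, the standard target gene, had 0, 0 and 1 UMIs in the IPI-926 libraries, against 0, 0 and 0 UMIs in the vehicle libraries. Ptch1, the receptor and a target, had 27, 13 and 5 UMIs in the IPI-926 libraries, against 6, 6 and 4 UMIs in the vehicle libraries. These raw counts came from sums of 3489442, 1244637 and 702633 UMIs in the IPI-926 libraries, against 573751, 966546 and 609037 UMIs in the vehicle libraries. They are therefore not levels, and their difference is no sign of a rise in Ptch1. Of the 14 genes of the list 2 could be tested over all cells and 0 over cells with at most 10000 UMIs. Smo, the protein that IPI-926 binds, had 12.5, 8.92 and 16.2 scaled CPM in the IPI-926 libraries, against 16.9, 4.995 and 13.7 scaled CPM in the vehicle libraries. Vegfa, the main angiogenic growth factor, had 117, 72.3 and 46.0 scaled CPM in the IPI-926 libraries, against 62.1, 82.9 and 53.0 scaled CPM in the vehicle libraries (log2 fold change 0.25, SE 0.40, adjusted p = 0.9999 by edgeR), and the groups overlapped. The 6 VEGF and angiogenic genes tested had a median of 0.09 and the 3 WNT target genes -0.29, with 0 called.

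Whether Retnlg Cxcr2 and Siglecf-type neutrophils responded differently to IPI-926 was tested as an interaction in 1 model with the library as a block, over 9617 genes in all 6 libraries, of which the third IPI-926 library gave only 15 Siglecf-type cells. Of these, 0.0208% passed: the immunoglobulin genes Ighg3 (log2 difference -9.58, SE 0.58, adjusted p = 3.6e-05 by edgeR) and Ighg1 (log2 difference -9.90, SE 0.64, adjusted p = 3.8e-05 by edgeR). Ighg3 had 111, 0 and 0 UMIs in Retnlg Cxcr2 cells of the IPI-926 libraries, against 745, 0 and 0 UMIs in those of the vehicle libraries, and in Siglecf-type cells 1590, 0 and 1 UMIs in the IPI-926 libraries, against 6, 0 and 0 UMIs in the vehicle libraries. Both calls rest on the first library of each group, where the 3 plasma cell markers summed to 449 CPM (IPI-926) and 232 CPM (vehicle) in Retnlg Cxcr2 cells, and with the first IPI-926 or the first vehicle library left out 0 genes passed by edgeR, where 324 and 256 had a raw p under 0.05. In cells with at most 10000 UMIs, Ighg3 had 104, 0 and 0 UMIs in Retnlg Cxcr2 cells of the IPI-926 libraries, against 7, 0 and 0 UMIs in the vehicle libraries.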

How the data were processed

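The deposited data were filtered barcode matrices of UMI counts, made by the authors with Cell Ranger: the file headers give cellranger 6.1.2, and the submitters' processing notes give Cell Ranger 2.1.1 and mm10. The annotation is not given in the sources used here, and 32158 of 32285 gene IDs are in GENCODE vM21. Counts of cells passing the rule were summed per library, since cells are not replicates, and each library is treated as 1 mouse; p-values measure the spread between these libraries. The summed counts held 573751 to 3489442 UMIs per library. They were tested with edgeR 4.0.16 (TMM, filterByExpr, robust quasi-likelihood fit, Benjamini-Hochberg, threshold 0.05) in R 4.3.3, with DESeq2 1.42.0 and limma 3.58.1 as alternatives; the tests were checked on simulated data. Shares were compared by exact two-sided permutation. Log2 differences between kinds of cell used a prior count of 0.5. Scaled CPM were rescaled over each set of sums compared, so levels differ slightly between comparisons. Cells were read with Python 3.11.15 and scanpy 1.11.5. Doublets were kept; Scrublet marked 134 members, left out in an alternative. Gm42418, which collects ribosomal RNA reads, took 6.12, 7.77 and 0.473% of the UMIs of these cells in the IPI-926 libraries, against 6.22, 10.8 and 0.213% in the vehicle libraries. The third library of each group was thus far lower than the others, and what set them apart was not tested. Intervals cover counting error only. One gene against Siglecf-type cells is not reported here.

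Genes named are the rule and marker genes, the 5 higher and 5 lower of smallest p, the 3 most abundant of each list and any that passed, the 15 highest and lowest against Siglecf-type cells, and Gli1, Ptch1 and Vegfa; Rsad2, Ifit3, Parp14 and the other genes named were chosen after their values were seen. The cells, lists and tests were chosen with earlier results of these data known. Alternatives were other tools, scalings and filters, each library left out, thinning, equal cells, stricter cells, doublets or cells with other markers left out, other member rules, and the 10000 UMI limit, the last and thinning to 500 UMIs added after seeing the data.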

Additional observations from a re-analysis of the deposited data

Results flagged for a closer look

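The response to IPI-926 differed between Retnlg Cxcr2 and Siglecf-type neutrophils for 2 genes by edgeR's interaction test, Ighg3 at a log2 difference of -9.58 and Ighg1 at -9.90. Ighg1 had 93, 0 and 1 UMIs in Retnlg Cxcr2 cells of the IPI-926 libraries, against 521, 0 and 0 UMIs in those of the vehicle libraries, and in Siglecf-type cells 973, 0 and 0 UMIs in the IPI-926 libraries, against 2, 0 and 0 UMIs in the vehicle libraries. Nearly all of these molecules were in the first library of each group, and what moved them was not tested.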

How the results depend on the processing

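The 1 gene called between IPI-926 and vehicle became 10 with DESeq2, 2 with no filter on low counts, 0 with limma-voom (181 at an unadjusted p under 0.05), 0 with the stricter cell filter (160) and 0 with both Retnlg and Cxcr2 required (53), and lay between 0 and 1 with 1 library left out. The 2 genes of the interaction became 43 with no filter, 10 with cells of at most 10000 UMIs and 0 by limma on the differences (246 at an unadjusted p under 0.05), and lay between 0 and 4 with 1 library left out, where 0 came without the first IPI-926 or the first vehicle library. The 1618 genes that differed from Siglecf-type cells in the same direction in all 5 libraries became 974 with every cell thinned to 1000 UMIs and the rule applied anew. The cause was not tested. Both shares kept a positive difference in all 14 alternatives of each, from 0.591 to 5.74 percentage points of kept cells and 2.04 to 20.6 of neutrophils. The lowest exact permutation p among these alternatives was 0.2 for each share. They reuse the same libraries, so their agreement in sign is not independent support for a rise. No paired analysis was possible because the labels carry no replicate numbers: the numbers here are in order of accession. With 3 tumours per group, changes of 1 log2 unit were mostly below detection, and sums rest on few large cells.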

Other observations

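Some genes had higher values in every IPI-926 library once cells over 10000 UMIs were left out; they were chosen after their values were seen, and none passed by edgeR. Hcar2, a receptor for hydroxybutyrate, had 1241, 779 and 504 scaled CPM in the IPI-926 libraries, against 209, 363 and 123 scaled CPM in the vehicle libraries (log2 fold change 1.86, SE 0.47, adjusted p = 0.9994). Ccl4, a chemokine, had 1277, 927 and 545 scaled CPM in the IPI-926 libraries, against 178, 448 and 279 scaled CPM in the vehicle libraries (log2 fold change 1.60, SE 0.44, adjusted p = 0.9994). Jun, an immediate early transcription factor, had 942, 739 and 1136 scaled CPM in the IPI-926 libraries, against 488, 329 and 303 scaled CPM in the vehicle libraries (log2 fold change 1.33, SE 0.34, adjusted p = 0.9994). The groups did not overlap for these 3 genes, and 3.36% of all genes tested in these cells were higher in this way.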
